A study of Arabidopsis thaliana with 24 samples.

Results

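Aldehyde dehydrogenases oxidize aldehydes to the corresponding carboxylic acids with NAD+ or NADP+. In plants the family serves several pathways, from the sinapate esters of the leaf epidermis and the breakdown of amino acids to the removal of reactive aldehydes that form when membrane lipids are oxidized under drought or salt. Its members were followed here in Arabidopsis thaliana plants that overaccumulate or lack flavonoids. They are the probe sets that the array annotation assigns to a single gene whose symbol starts with ALDH, which are 8 genes, with 1 probe set each, of 13287 genes that have such a probe set among the 22746 probe sets. These 8 stand for 8 of the 14 genes with such a symbol in RefSeq's annotation of the TAIR10.1 assembly. ALDH2B4, ALDH2B7, ALDH3H1, ALDH3I1, ALDH5F1 and ALDH12A1 were not analysed here.

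The RNA came from the aerial parts of 3-week-old plants grown from seeds kept for 2 days in the cold and dark, on agar medium with 1% sucrose at 22 °C in long days (16 h light, 8 h dark) and was hybridized to Affymetrix ATH1 GeneChips, whose short probes are grouped into probe sets. Each of 8 genotypes has 3 arrays. Col-0 is the wild type and the background of the others. In MYB12OX the flavonol regulator MYB12 is overexpressed, and in pap1-D the anthocyanin regulator MYB75/PAP1. Both are homozygous. Crossing these 2 lines gave the homozygous WOX1-1 and WOX1-2. Chalcone synthase (CHS), which makes the first flavonoid precursor, is mutated in tt4. The homozygous crosses MYB12OX/tt4 and pap1-D/tt4 combine 1 overexpressed regulator with that mutation. The labels name neither the promoters behind the overexpression nor whether a genotype's 3 arrays represent different plants, pools or repeats of 1 extract. The p-values below therefore cover array-to-array spread only, and some of it may be technical. The growth protocol, shared by all arrays, also mentions a drought experiment at 21 °C, and no label ties an array to it.

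The deposited values are linear MAS5 signals with a trimmed mean of 500.0 on each array. Differences below are differences of log2(signal + 42.6), with SE from 1 limma fit over all 24 arrays, and p-values are adjusted by Benjamini-Hochberg over the 14935 probe sets tested. An adjusted p under 0.05 counts as passing. Of the markers checked for the labelled tissue, the leaf gene RCA, the activase of Rubisco, read 18031 to 27159 on the arrays, the anther gene ATA27 read 1.10 to 238 and the root gene AT1G62500 read 43.9 to 376. None of 4 seed and 4 flower markers had a single-gene probe set. Of the variance between arrays, 34.5% lay on a first principal component that followed the sample listing, which begins with Col-0 and ends with tt4. What the listing stands for is unknown here, and genotype and place can be told apart only through differences between the 3 arrays of a genotype. The arrays pap1-D replicate 1 and WOX1-1 replicate 1 stood apart from the others of their lines on the second component (-22.3 and -22.1, against -5.58 to -8.57).

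All 8 ALDH probe sets read above the filter of 85.2 on all 24 arrays, so none entered the tests through 1 genotype alone. Of the 8, 5 differed among the genotypes in the F test of the fit, where 37.7% of all probe sets tested did. These were ALDH2C4, ALDH6B2, ALDH7B4, ALDH11A3 and ALDH3F1. ALDH10A9 (adjusted p = 0.0678), ALDH10A8 (adjusted p = 0.493) and ALDH22A1 (adjusted p = 0.906) did not pass. The differences were small, since no passing difference in the 10 planned pairs exceeded 0.64 on the log2 scale.

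**Figure D1:**
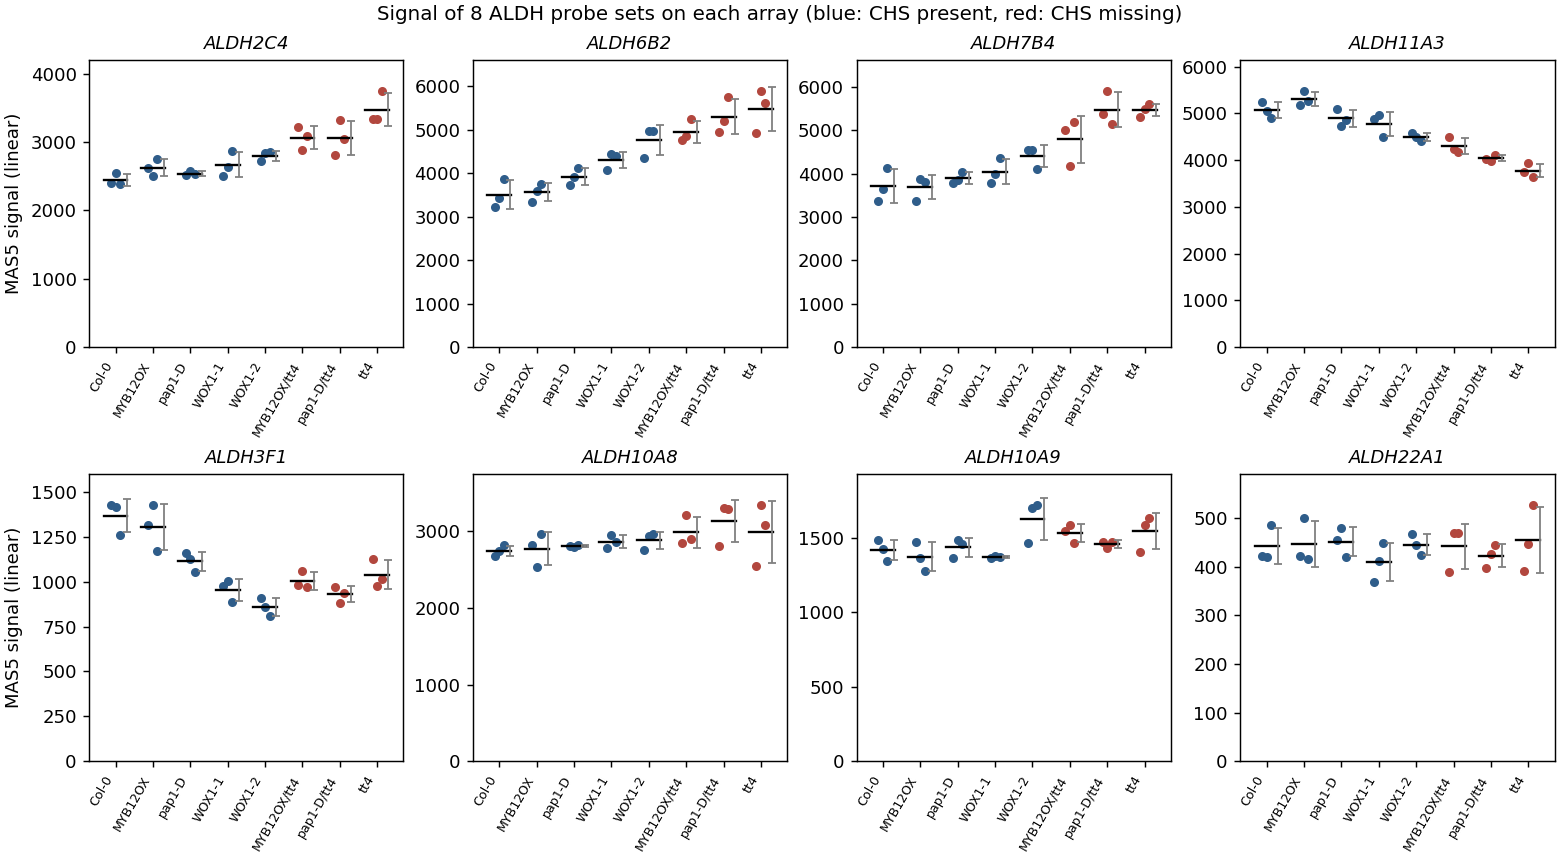
MAS5 signal (linear, from 0) of the 8 ALDH probe sets on each of the 24 arrays, by genotype in listing order. Points are arrays, black bars genotype means and grey bars the SD (n = 3): ALDH2C4, ALDH6B2 and ALDH7B4 are highest in the genotypes without CHS, ALDH11A3 is lowest there, and ALDH3F1 is lowest in WOX1-2.

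ALDH2C4 (AT3G24503), also known as REF1, oxidizes sinapaldehyde and coniferaldehyde to sinapate and ferulate, the acids of the UV-absorbing esters that Arabidopsis leaves hold beside flavonoids. The ALDH2C4 arrays read 2397, 2548 and 2381 in Col-0, 2613, 2502 and 2749.8 in MYB12OX, 2513, 2573 and 2528 in pap1-D, 2505, 2633 and 2865 in WOX1-1 and 2717, 2839.6 and 2848 in WOX1-2. Without CHS they read 3216, 2885 and 3081 in MYB12OX/tt4, 2812, 3315 and 3048 in pap1-D/tt4 and 3332, 3337 and 3748 in tt4. The 9 arrays without CHS lay between 2812 and 3748, and 3 of the 15 arrays with CHS, all of WOX1-1 or WOX1-2, lay above the lowest of them. ALDH2C4 rose 1.41-fold in tt4 against Col-0, by 0.50 ± 0.067 (SE) on the scale of log2(signal + 42.6), to which the folds given here also refer (adjusted p = 4.78e-06). It also rose by 0.22 ± 0.067 in MYB12OX/tt4 against MYB12OX (adjusted p = 0.0267) and by 0.26 ± 0.067 in pap1-D/tt4 against pap1-D (adjusted p = 0.00862). No array of the mutant overlapped its counterpart in these comparisons. How many of all probe sets lacked such overlap was not counted, here or for the genes below. The change in the regulator lines was smaller than in the wild-type background, by 0.28 ± 0.095 with MYB12OX and 0.24 ± 0.095 with pap1-D, but neither interaction passed (adjusted p = 0.227 and 0.242). Their 95% intervals ran from -0.48 to -0.082 and from -0.43 to -0.040, before any adjustment. The call in MYB12OX/tt4 was lost on leaving out any 1 of these arrays, with the adjusted p without it: MYB12OX replicate 1 (0.0755), MYB12OX replicate 2 (0.105), MYB12OX/tt4 replicate 1 (0.0990) and MYB12OX/tt4 replicate 3 (0.0828). That in pap1-D/tt4 was lost without pap1-D/tt4 replicate 2 (0.0605). Both calls were also lost when only the genotypes compared were fitted (adjusted p = 0.0576 in MYB12OX/tt4 and 0.0589 in pap1-D/tt4).

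ALDH6B2 (AT2G14170) encodes a methylmalonate-semialdehyde dehydrogenase, an enzyme of valine breakdown in mitochondria. The ALDH6B2 arrays read 3217, 3422 and 3872 in Col-0, 3340.4, 3593 and 3753 in MYB12OX, 3727, 3917 and 4113 in pap1-D, 4084, 4437 and 4390.4 in WOX1-1 and 4355, 4961 and 4976 in WOX1-2. Without CHS they read 4757, 4866 and 5244 in MYB12OX/tt4, 4953, 5207 and 5741 in pap1-D/tt4 and 4918, 5894 and 5623 in tt4. The lowest array without CHS read 4757, and only 2 arrays with CHS, both of WOX1-2, lay above it. ALDH6B2 rose 1.56-fold in tt4 against Col-0, by 0.64 ± 0.081 (adjusted p = 2.09e-06). The rise was 0.47 ± 0.081 in MYB12OX/tt4 against MYB12OX (adjusted p = 0.000279) and 0.43 ± 0.081 in pap1-D/tt4 against pap1-D (adjusted p = 0.000692). All 3 calls were kept when any single array was left out. The interactions were -0.17 ± 0.11 and -0.21 ± 0.11 and did not pass (adjusted p = 0.654 and 0.438).

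ALDH7B4 (AT1G54100) belongs to the antiquitin or turgor-responsive aldehyde dehydrogenases, is known to be induced by drought, salt and abscisic acid, and limits the aldehydes of lipid peroxidation. The ALDH7B4 arrays read 3372, 3647 and 4132 in Col-0, 3376, 3886 and 3808 in MYB12OX, 3795, 3846 and 4045 in pap1-D, 3789, 3983 and 4372 in WOX1-1 and 4549.9, 4544 and 4106 in WOX1-2. Without CHS they read 5015, 4182 and 5196 in MYB12OX/tt4, 5386, 5909.8 and 5139 in pap1-D/tt4 and 5313, 5498 and 5600.2 in tt4. Of the 15 arrays with CHS, 3 lay above the lowest array without it, MYB12OX/tt4 replicate 2. ALDH7B4 rose 1.47-fold in tt4 against Col-0, by 0.56 ± 0.085 (adjusted p = 2.26e-05), by 0.37 ± 0.085 in MYB12OX/tt4 against MYB12OX (adjusted p = 0.00393) and by 0.49 ± 0.085 in pap1-D/tt4 against pap1-D (adjusted p = 0.000368). The groups did not overlap in any of these comparisons, and every call was kept when any single array was left out. The mean of pap1-D/tt4, 5478 ± 394 (SD, n = 3), lay beside that of tt4, 5470.3 ± 146 (SD, n = 3), and the 95% interval of their difference ran from -0.18 to 0.18 on the log2 scale.

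ALDH11A3 (AT2G24270) encodes the cytosolic non-phosphorylating glyceraldehyde-3-phosphate dehydrogenase, which yields NADPH from a triose phosphate. It moved the other way. The ALDH11A3 arrays read 5254, 5057 and 4901 in Col-0, 5183, 5484 and 5264 in MYB12OX, 5094, 4729.6 and 4858 in pap1-D, 4880.1, 4967 and 4487 in WOX1-1 and 4586, 4487 and 4410.4 in WOX1-2. Without CHS they read 4500.4, 4238 and 4174 in MYB12OX/tt4, 4029.9, 3977 and 4104 in pap1-D/tt4 and 3745, 3935 and 3648 in tt4. The highest array without CHS read 4500.4, and 3 arrays with CHS, from WOX1-1 and WOX1-2, lay below it. ALDH11A3 fell by 0.42 ± 0.053 in tt4 against Col-0 (adjusted p = 2.07e-06), by 0.30 ± 0.053 in MYB12OX/tt4 against MYB12OX (adjusted p = 0.000405) and by 0.27 ± 0.053 in pap1-D/tt4 against pap1-D (adjusted p = 0.000926). On the signal scale its mean went from 5071 ± 177 in Col-0 to 3776 ± 146 in tt4 (SD, n = 3 each).

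ALDH3F1 (AT4G36250) belongs to family 3, whose members act on medium-chain and long-chain aldehydes, among them products of lipid peroxidation. The ALDH3F1 arrays read 1427, 1414 and 1260.4 in Col-0, 1318, 1428 and 1172 in MYB12OX, 1159, 1128 and 1057 in pap1-D, 977, 1003 and 887 in WOX1-1 and 911, 857 and 811 in WOX1-2. Without CHS they read 979.8, 1059 and 969 in MYB12OX/tt4, 973, 881 and 939 in pap1-D/tt4 and 1129, 974 and 1018 in tt4. Its lowest mean was that of WOX1-2, 859.6 ± 50.1, and not that of tt4, 1040.1 ± 80.2, against 1367 ± 92.7 in Col-0 (SD, n = 3 each). ALDH3F1 fell by 0.38 ± 0.078 in tt4 against Col-0 (adjusted p = 0.000553), by 0.36 ± 0.078 in MYB12OX/tt4 against MYB12OX (adjusted p = 0.00230) and by 0.25 ± 0.078 in pap1-D/tt4 against pap1-D (adjusted p = 0.0284). The 3 arrays of each genotype without CHS lay below the 3 of its counterpart with CHS. The last of these calls was lost on leaving out any 1 of these arrays, with the adjusted p without it: pap1-D replicate 1 (0.115), pap1-D replicate 2 (0.0728), pap1-D/tt4 replicate 2 (0.113) and pap1-D/tt4 replicate 3 (0.0628). It was also lost without the 2 arrays that stood apart (adjusted p = 0.119) and when only the genotypes compared were fitted (adjusted p = 0.0721).

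Across the family, 5 of 8 ALDH genes changed between plants without and with CHS in each of the 3 backgrounds, 3 upward and 2 downward. These 3 comparisons share no arrays but rest on the same estimate of the spread. In each of them the plants without CHS come later in the listing, so their agreement does not separate genotype from place. The share of all tested probe sets called was 36.5% in tt4 against Col-0, 17.4% in MYB12OX/tt4 against MYB12OX and 18.9% for pap1-D/tt4. By direction, 19.2% of all probe sets rose and 17.2% fell in tt4, 9.20% and 8.23% in MYB12OX/tt4, and 10.1% and 8.84% in pap1-D/tt4. The median difference of the 8 members was 0.12, 0.13 and 0.087, beside 0.014, 0.018 and 0.038 over all tested probe sets. The leaf marker RCA, the only 1 of 7 leaf markers with a single-gene probe set, fell in the same 3 comparisons. It fell by 0.23 ± 0.078, 0.23 ± 0.078 and 0.23 ± 0.078 (adjusted p = 0.0248, 0.0420 and 0.0425). The anther marker ATA27 rose by 1.67 ± 0.51 in MYB12OX/tt4 against MYB12OX (adjusted p = 0.0279), from a mean of 2.31 to 116. Its MYB12OX arrays read 1.19 to 3.65, under the filter, so the size of this difference depends on the offset. ATA27 did not pass in tt4 against Col-0 (0.73, adjusted p = 0.286) or pap1-D/tt4 against pap1-D (0.15, adjusted p = 0.875). The part of RCA and ATA27 in the ALDH differences was not tested. In whole aerial parts fewer cells of a type and less RNA per cell cannot be told apart.

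**Figure D2:**
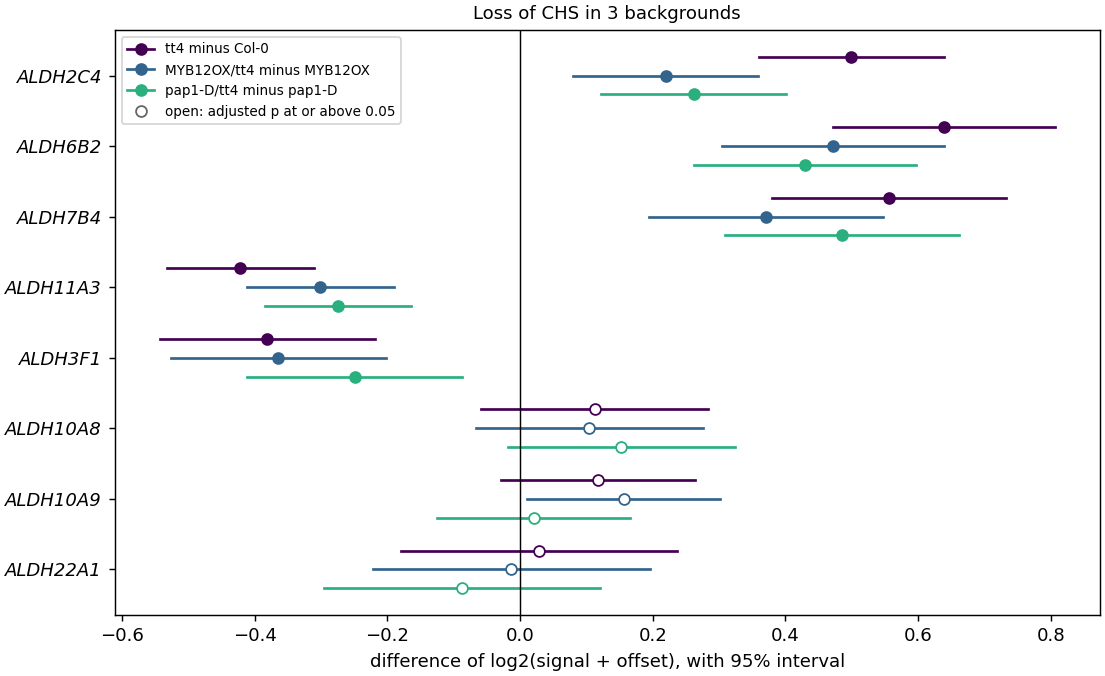
Difference of log2(signal + offset) between plants without and with CHS for the 8 ALDH genes in 3 backgrounds, with 95% intervals from the limma fit (not adjusted). Filled points have an adjusted p under 0.05: ALDH2C4, ALDH6B2 and ALDH7B4 lie above 0 and ALDH11A3 and ALDH3F1 below it in each background.

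The members that did not pass in any comparison of plants without and with CHS were both betaine aldehyde dehydrogenase homologs, which oxidize aminoaldehydes that arise from polyamines, and ALDH22A1, a member of a plant-specific family. ALDH10A8 (AT1G74920) read 2537 to 3340.3 over the 24 arrays, and its tt4 arrays, 2539, 3340.3 and 3080.2, enclosed those of Col-0, 2674, 2739.7 and 2812. Its difference between tt4 and Col-0 had a 95% interval from -0.058 to 0.28, and it passed without tt4 replicate 1 (0.22, adjusted p = 0.0288). ALDH22A1 (AT3G66658) read 369 to 527, and its genotype means lay between 409 in WOX1-1 and 454 in tt4. Its interval for tt4 against Col-0 ran from -0.18 to 0.24, so a change of the size seen in ALDH2C4 lay outside it. ALDH10A9 (AT3G48170) had its highest mean in WOX1-2, where the arrays read 1464, 1698 and 1722. The lowest means were those of WOX1-1 (1367, 1381 and 1369.9) and MYB12OX (1473, 1369 and 1277). The tt4 arrays, 1408, 1589 and 1636, overlapped those of WOX1-2, and the difference of 0.073 ± 0.070 did not pass (adjusted p = 0.570). In MYB12OX/tt4 against MYB12OX it differed by 0.16 ± 0.070, with an unadjusted 95% interval from 0.010 to 0.30 (adjusted p = 0.137). In WOX1-2 against Col-0 the difference was 0.19 ± 0.070 (adjusted p = 0.0539), and it passed without WOX1-2 replicate 1 (adjusted p = 0.0117) or tt4 replicate 1 (adjusted p = 0.0401), with array weights (adjusted p = 0.0201) and with the filter at the overall median (adjusted p = 0.0479). Among all 28 pairs of genotypes, a set of comparisons added after the data were seen, ALDH10A9 passed only between WOX1-2 and MYB12OX (0.24 ± 0.070, adjusted p = 0.0306). That call was lost on leaving out any 1 of these arrays, with the adjusted p without it: MYB12OX replicate 2 (0.0686), MYB12OX replicate 3 (0.136), WOX1-2 replicate 2 (0.123) and WOX1-2 replicate 3 (0.156). ALDH10A8 and ALDH22A1 passed in none of the 28, whereas ALDH6B2, ALDH11A3 and ALDH3F1 each passed in 14, ALDH7B4 in 13 and ALDH2C4 in 12. In how many of the 28 pairs other probe sets passed was not counted, so these counts have no background beside them.

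With 1 overexpressed regulator and CHS present, at most 1 member passed. In MYB12OX against Col-0, 0 of 8 members passed in limma and 0 had an unadjusted p under 0.05, where 1.00% of all probe sets tested passed. The member differences lay between -0.066 (ALDH3F1) and 0.10 (ALDH2C4). The interval for ALDH2C4 ran from -0.039 to 0.24. In pap1-D against Col-0, 1 of 8 passed, where 10.1% of all did. This was ALDH3F1, which fell by 0.28 ± 0.078 (adjusted p = 0.0217), with the 3 pap1-D arrays below all Col-0 arrays. The call was lost without any 1 of Col-0 replicate 1 (0.107), Col-0 replicate 2 (0.0851) and pap1-D replicate 3 (0.102), the adjusted p in parentheses. These comparisons, those of the WOX1 lines and that of tt4 with Col-0 all use the same 3 Col-0 arrays.

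Both regulators were overexpressed in the WOX1 lines. In WOX1-1 against Col-0, 2 of 8 passed, where 16.8% of all did. ALDH6B2 rose by 0.30 ± 0.081 (adjusted p = 0.0128) and ALDH3F1 fell by 0.50 ± 0.078 (adjusted p = 0.000103). In WOX1-2 against Col-0, 5 of 8 passed, where 23.1% of all did. ALDH6B2 rose by 0.44 ± 0.081 (adjusted p = 0.000309), ALDH7B4 by 0.24 ± 0.085 (adjusted p = 0.0414) and ALDH2C4 by 0.20 ± 0.067 (adjusted p = 0.0391). ALDH3F1 fell by 0.64 ± 0.078 (adjusted p = 2.54e-06), to 0.64 of the Col-0 level, and ALDH11A3 by 0.17 ± 0.053 (adjusted p = 0.0215). ALDH7B4 was the only one of the 5 whose WOX1-2 and Col-0 arrays overlapped, and the share of all probe sets without overlap was not counted. The calls of ALDH2C4, ALDH7B4 and ALDH11A3 in WOX1-2 were each lost on leaving out 1 of 4 arrays. For ALDH2C4 these were Col-0 replicate 1 (0.112), Col-0 replicate 3 (0.107), WOX1-2 replicate 2 (0.1002) and WOX1-2 replicate 3 (0.115), with the adjusted p without the array in parentheses. For ALDH7B4 they were Col-0 replicate 1 (0.206), Col-0 replicate 2 (0.104), WOX1-2 replicate 1 (0.119) and WOX1-2 replicate 2 (0.121), and for ALDH11A3 Col-0 replicate 1 (0.0987), Col-0 replicate 2 (0.0517), WOX1-2 replicate 2 (0.0551) and WOX1-2 replicate 3 (0.0820). In WOX1-1, ALDH6B2 did not pass without Col-0 replicate 1 (0.0887) and WOX1-1 replicate 2 (0.0503).

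A direct comparison of WOX1-2 with WOX1-1 passed for 0 of 8 members in limma, as for 0 of all probe sets (0%), and 1 member, ALDH10A9, had an unadjusted p under 0.05 (0.24 ± 0.070, adjusted p = 0.328). The share of all probe sets under that unadjusted threshold was not counted. ALDH3F1 in the WOX1 lines was also compared with both parents, after the data were seen. By genotype means it was lower in WOX1-2 than in MYB12OX by 0.58 ± 0.078 (adjusted p = 4.06e-05) and than in pap1-D by 0.36 ± 0.078 (adjusted p = 0.0146). Of the 8 members, 4 passed between WOX1-2 and MYB12OX and 1 between WOX1-2 and pap1-D, where 11.3% and 2.38% of all probe sets did. The call against pap1-D was lost on leaving out any 1 of these arrays, with the adjusted p without it: pap1-D replicate 1 (0.0885), pap1-D replicate 2 (0.0522), WOX1-2 replicate 2 (0.0539) and WOX1-2 replicate 3 (0.105). WOX1-1 was lower in ALDH3F1 than MYB12OX by 0.43 ± 0.078 (adjusted p = 0.00235), while the difference from pap1-D, -0.21 ± 0.078, did not pass (adjusted p = 0.582). Between WOX1-1 and MYB12OX 1 of 8 members passed and between WOX1-1 and pap1-D 0 of 8, where 4.28% and 0.0469% of all probe sets did. With the place in the listing as a covariate none of these ALDH3F1 calls was kept: the values were -0.033 (adjusted p = 0.966) for WOX1-2 and -0.068 (adjusted p = 0.896) for WOX1-1 against MYB12OX, and 0.0035 (adjusted p = 0.995) for WOX1-2 against pap1-D. The departure of both WOX1 lines from the sum of the parental differences was -0.22 ± 0.10 for ALDH3F1 and did not pass (adjusted p = 0.555), and no other member passed this test, where 0.208% of all probe sets did.

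**Figure D3:**
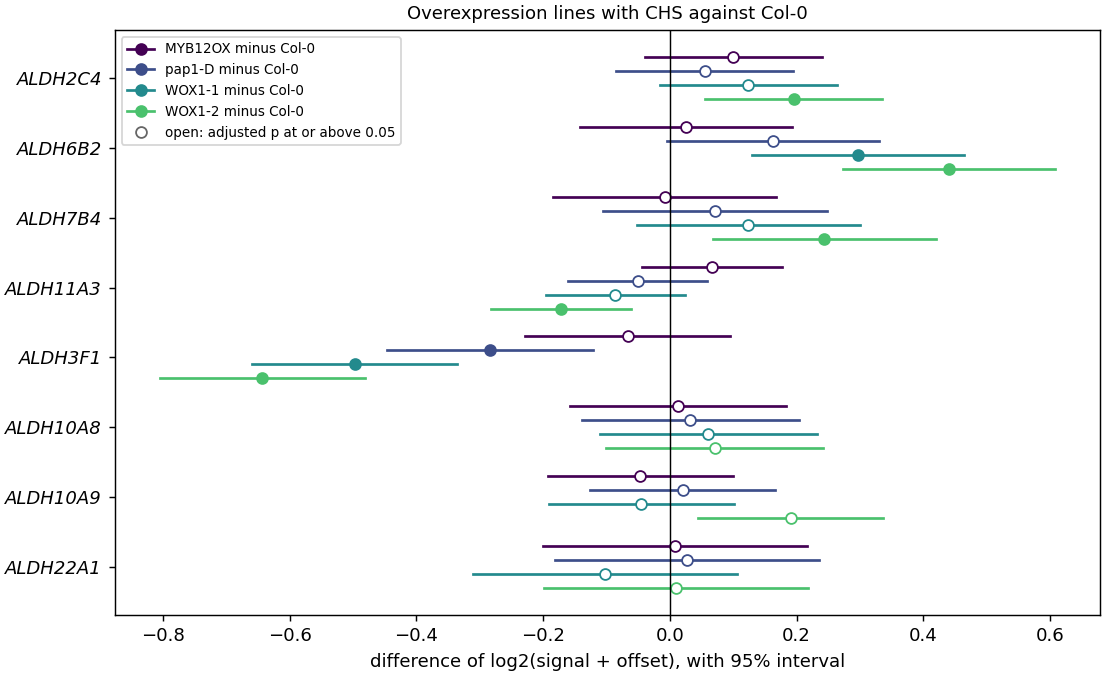
Difference of log2(signal + offset) from Col-0 for the 8 ALDH genes in the 4 overexpression genotypes with CHS, with 95% intervals from the limma fit (not adjusted). Filled points have an adjusted p under 0.05: ALDH3F1 passes in pap1-D and both WOX1 lines, ALDH6B2 in both WOX1 lines, and ALDH2C4, ALDH7B4 and ALDH11A3 in WOX1-2.

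The regulators were also compared in plants without CHS, where few probe sets of any kind passed. Of the 8 members, 0 passed in MYB12OX/tt4 against tt4 and 0 in pap1-D/tt4 against tt4 in limma, where 0.187% and 0.147% of all probe sets did. At an unadjusted p under 0.05 there were 3 members in MYB12OX/tt4, namely ALDH2C4 (-0.18 ± 0.067), ALDH7B4 (-0.19 ± 0.085) and ALDH11A3 (0.19 ± 0.053), and 1 in pap1-D/tt4, ALDH2C4 (-0.18 ± 0.067). The share of all probe sets under that unadjusted threshold was not counted, here or for the interactions below, so these counts have no background beside them. The ALDH2C4 arrays of both double genotypes lay below all 3 of tt4. In limma neither interaction of CHS loss with a regulator passed for any of the 8 members, where 0.268% and 1.17% of all probe sets did, and ALDH2C4 alone had an unadjusted p under 0.05 in each.

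The order of levels differed between the members. ALDH2C4, ALDH6B2 and ALDH7B4 had tt4 or pap1-D/tt4 at the top and Col-0 or MYB12OX at the bottom, and ALDH11A3 had the reverse. For these 4 genes no neighbours in the order passed the test, the lowest adjusted p between neighbours being 0.312 (ALDH2C4, tt4 against MYB12OX/tt4). For ALDH3F1 the order from high to low was Col-0, MYB12OX, pap1-D, tt4, MYB12OX/tt4, WOX1-1, pap1-D/tt4 and WOX1-2, again with no passing difference between neighbours. WOX1-2 was lower than tt4 in ALDH3F1 by 0.26 ± 0.078 (adjusted p = 0.0379). Leaving out any 1 of these arrays ended this call, with the adjusted p without it: WOX1-2 replicate 2 (0.0969), WOX1-2 replicate 3 (0.130), tt4 replicate 1 (0.151) and tt4 replicate 3 (0.0747). In ALDH2C4 and ALDH7B4 WOX1-2 was also below tt4, by 0.30 ± 0.067 and 0.31 ± 0.085 (adjusted p = 0.00672 and 0.0239), and in ALDH11A3 it was above tt4 by 0.25 ± 0.053 (adjusted p = 0.00521). Between WOX1-1 and tt4 4 of 8 members passed, where 21.6% of all probe sets did, and ALDH6B2 in WOX1-1 was below tt4 by 0.34 ± 0.081 (adjusted p = 0.00432). Between WOX1-2 and tt4 4 of 8 members passed, where 9.15% of all probe sets did. With the listing covariate the WOX1-2 values against tt4 were 0.0058 (adjusted p = 0.995) for ALDH2C4, 0.064 (adjusted p = 0.937) for ALDH7B4 and 0.0018 (adjusted p = 0.997) for ALDH11A3. For ALDH6B2 in WOX1-1 against tt4 the value was 0.71 (adjusted p = 0.0607), of the other sign. The ALDH7B4 call was lost without any 1 of WOX1-2 replicate 3 (0.0957), tt4 replicate 2 (0.0641) and tt4 replicate 3 (0.0795).

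Levels of several members also ran along the sample listing. Across the 24 arrays the correlation of the log2 value with the place in the listing was 0.96 for ALDH6B2, 0.91 for ALDH7B4, 0.90 for ALDH2C4 and -0.95 for ALDH11A3, and -0.70 for ALDH3F1. Arrays of a genotype sit side by side in the listing, so these values describe both at once, and 13.04% of all tested probe sets had a correlation of at least 0.8 in size. Within genotypes, where the genotype is fixed, ALDH6B2 read higher on the last-listed than on the first-listed array in 8 of 8 genotypes, by 0.18 ± 0.050 (mean ± SD over 8 genotypes) on the log2 scale. ALDH3F1 read lower on it in 8 of 8, at -0.12 ± 0.058, and ALDH10A8 higher in 8 of 8, at 0.10 ± 0.096. For ALDH7B4, ALDH2C4 and ALDH11A3 that difference was 0.084 ± 0.14, 0.069 ± 0.087 and -0.055 ± 0.056, and had the same sign in 6 of 8 genotypes for each. Within a genotype the place in the listing is also the replicate number, so place and number cannot be told apart there. The first principal component also rose from the first-listed to the last-listed array in 8 of 8 genotypes. The share of all probe sets that did so was not counted.

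With the place in the listing as a covariate, none of the 23 passing differences from the planned pairs passed, and all 23 had the other sign. Over all 14935 probe sets, 84 passed in tt4 against Col-0 in that fit, in place of 5449. In tt4 against Col-0 the values in that fit were -0.22 for ALDH2C4 (adjusted p = 0.863), -1.21 for ALDH6B2 (adjusted p = 0.0886) and -0.32 for ALDH7B4 (adjusted p = 0.840), and 0.16 for ALDH11A3 (adjusted p = 0.880) and 0.89 for ALDH3F1 (adjusted p = 0.337). That fit takes its slope from the arrays within genotypes, where the place is also the replicate number. It extends that slope over the whole listing, and its SE for these genes ran from 0.32 to 0.52. With the replicate number as a block in place of the covariate, all 23 differences passed. In the F test with the covariate 1 of 8 members differed among genotypes, where 7.08% of all probe sets did. This was ALDH3F1 (adjusted p = 0.000456), while ALDH6B2 (adjusted p = 0.204) and the other 6 did not pass. Of 14 passing differences in the further pairs compared after the data were seen, 13 did not pass with the covariate, and 8 of them had the other sign. The remaining one was ALDH3F1 in WOX1-2 against tt4 (-0.81 ± 0.19, adjusted p = 0.0282), a call that single arrays ended in the fit without the covariate.

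**Figure D4:**
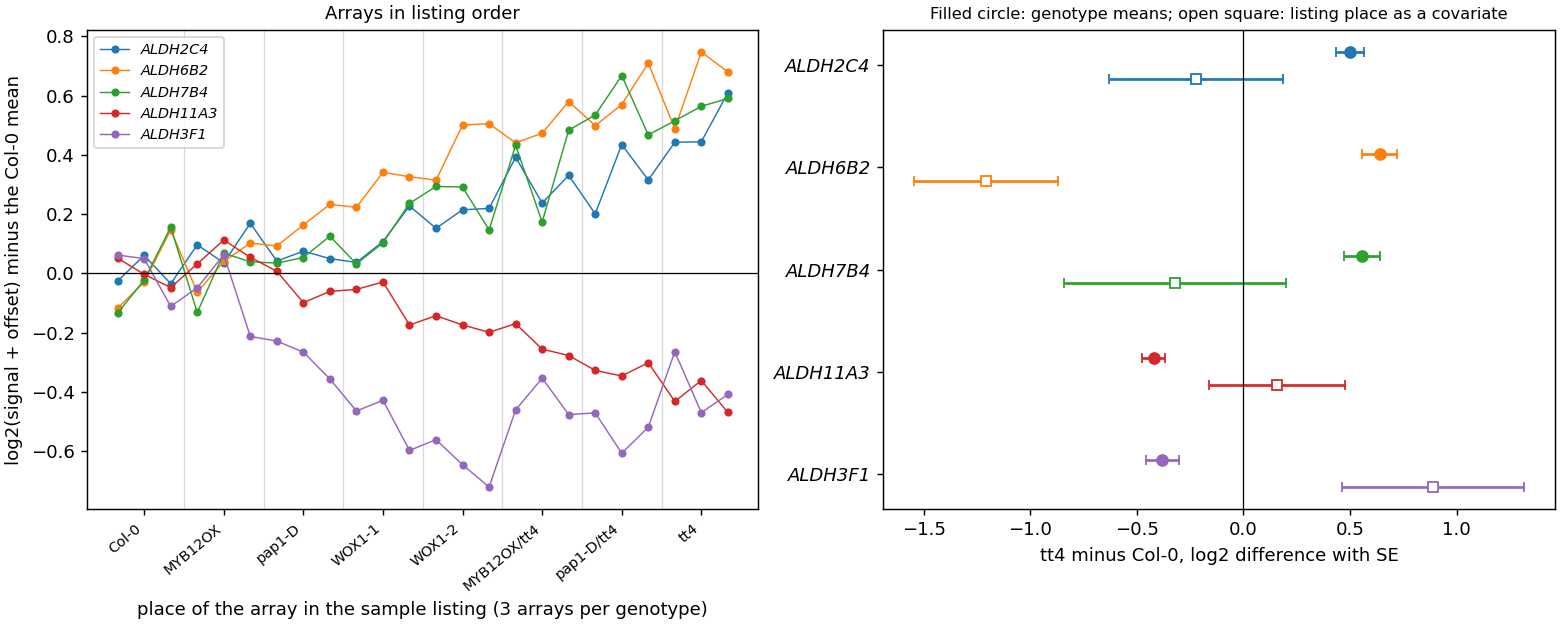
Left, log2(signal + offset) minus the Col-0 mean for the 5 ALDH genes that differ among genotypes, on the 24 arrays in listing order, and right, the difference between tt4 and Col-0 with its SE, from genotype means alone (filled circles) and with the place in the listing as a covariate (open squares). Each of the 5 estimates changes sign with the covariate, with adjusted p from 0.0886 to 0.880.

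Neighbouring pathway genes could be followed only where the annotation names them. Of 23 genes of phenylpropanoid and sinapate synthesis besides ALDH2C4, 3 had a single-gene probe set and 2 were tested. HCT makes the shikimate esters on the way to lignin, and UGT84A3 glucosylates hydroxycinnamic acids such as sinapate. Both fell in tt4 against Col-0, by 0.45 ± 0.071 and 0.46 ± 0.11 (adjusted p = 3.15e-05 and 0.00248), where ALDH2C4 rose. Of all probe sets tested, 17.2% fell in that comparison. The fit with the listing covariate is not given here for HCT and UGT84A3, so genotype and place are not told apart. UGT84A3 averaged 341 ± 13.4 in Col-0, 188 ± 28.3 in WOX1-2 and 236 ± 14.7 in tt4 (SD, n = 3 each), and its Col-0 arrays lay above those of every other genotype. Both genes also fell in pap1-D, WOX1-1 and WOX1-2 against Col-0 and in MYB12OX/tt4 against MYB12OX. In these comparisons 10.1%, 16.8%, 23.1% and 17.4% of all probe sets passed in either direction. In MYB12OX against Col-0 (UGT84A3 at -0.23 ± 0.11, adjusted p = 0.397) and in pap1-D/tt4 against pap1-D (-0.13 ± 0.11, adjusted p = 0.444) neither passed. UGT84A1, of the same enzyme group, stayed between 2.07 and 4.84, under the filter.

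Of 8 genes of polyamine oxidation, which supplies aminoaldehydes to the ALDH10 enzymes, 2 were tested. The copper amine oxidase gene CuAO1 rose by 0.28 ± 0.095 in tt4 against Col-0 (adjusted p = 0.0274), from 433 ± 33.9 to 534 ± 57.0 (SD, n = 3 each). AT2G42490, another gene of the list, fell in WOX1-1 and WOX1-2 against Col-0, by 0.26 ± 0.074 and 0.23 ± 0.074 (adjusted p = 0.0175 and 0.0291), and neither gene passed in another planned comparison. Of 12 drought and abscisic acid genes, 2 were tested, the context for the drought-induced ALDH7B4. COR47, a dehydrin gene, averaged 7954 ± 633 in Col-0 and 13420.3 ± 4996 in tt4, and COR15A, a gene of cold and drought protection, 4452 ± 254 and 2893 ± 1175 (SD, n = 3 each). COR47 rose by 0.69 ± 0.21 and COR15A fell by 0.69 ± 0.23 in that comparison (adjusted p = 0.0133 and 0.0229), where 36.5% of all probe sets passed. The tt4 arrays were spread widely, from 10465 to 19189 for COR47 and from 2011 to 4227 for COR15A. COR47 also rose in WOX1-2 against Col-0, by 0.69 ± 0.21 (adjusted p = 0.0214), with WOX1-2 arrays from 10921 to 17006. COR15A passed in no other planned comparison. For the polyamine and drought genes, fits without single arrays or with the listing covariate are not given here.

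Among 8118 other named single-gene probe sets, those whose 8 genotype means followed a member most closely were, for ALDH2C4, AT3G47670 (Pearson r = 0.993) and AT2G46900 (0.992). For ALDH6B2 they were AT2G02870 (0.997) and IVD, the gene of isovaleryl-CoA dehydrogenase (0.997), whose genotype means ran from 838 to 2127. For ALDH7B4 they were AT1G61740 (0.998) and AT3G62360 (0.996), and for ALDH11A3 AT4G02850 (0.993) and AT5G37360 (0.992). For ALDH3F1 they were AT3G16560 (0.990) and AT5G43450 (0.983). Such values are common in these data, since 749 probe sets had r above 0.9 with ALDH6B2 and 122 with ALDH3F1, and genotype means share the listing order. Between members over the same 8 means, r was 0.96 for ALDH6B2 and ALDH7B4, 0.93 for ALDH2C4 and ALDH7B4, -0.98 for ALDH7B4 and ALDH11A3, and -0.52 for ALDH3F1 and ALDH2C4.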

How the data were processed

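RNA of aerial parts was hybridized to 24 ATH1 arrays, and the authors deposited 1 linear intensity per probe set, made with MAS5 per the submitters' processing notes. No other upstream step is given in the sources used here. Probe sets were named through the platform annotation, in which 13513 had 1 gene, 503 several and 8730 none, and symbols were updated through RefSeq, where 13436 matched. The levels of the overexpressed and mutated genes were not analysed here.

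Control probe sets (64) were left out. Probe sets with an intensity above 85.2, the overall median over 2, on at least 3 arrays were kept. An offset of 42.6, the median over 4, was added before log2, and limma 3.58.1 in R 4.3.3 fitted 1 mean per genotype (16 residual df) with an intensity trend, 10 pairs, 3 interactions and an F test, two-sided, with Benjamini-Hochberg adjustment over all tested probe sets. The fit was tested on simulated data with independent noise around each probe set's mean. These held no trend along the listing and no replicate effect, so that test does not cover either. Scanner files and detection calls were not used here, and MAS5 scaling to a common trimmed mean removes any change in total RNA.

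All members were named, as was each tested gene of the lists that passed, and the 2 probe sets most like each member that passed the F test. The members and lists were chosen with earlier results of these data known. Alternatives covered the offset, filter, normalization, variance model, samples, replicate block, listing place and single arrays.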

Additional observations from a re-analysis of the deposited data

How the results depend on the processing

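Of 23 passing differences of ALDH genes, 15 also passed in all 34 settings other than the listing covariate, and none of the 23 changed sign in them. These settings were the offsets of the overall median and of the median over 16, no filter and a filter at the median, quantile normalization, no intensity trend, array weights, only the genotypes compared, the replicate block, each of 24 arrays left out, and the 2 arrays that stood apart left out, which was chosen after seeing the data. The filters, the trend, the genotypes compared and the replicate block do not alter the estimated difference itself. Leaving out an array of a genotype outside the comparison does not either. In those settings the sign could not change, and only the adjusted p could. The replicate block gave 2 passing members instead of 1 in pap1-D against Col-0, adding ALDH6B2 (0.16, adjusted p = 0.0455), and moved no other ALDH count over 1.5 times. Of all probe sets, 11.9% passed in pap1-D against Col-0 in that fit. Deviations of same-numbered arrays from their genotype means correlated at 0.095 on average, with 36 of 84 pairs over 0.1, and those of different-numbered arrays at -0.047, with 24 of 168 over 0.1. Such deviations cancel within a genotype, so the second average largely follows from the first and is no separate result. The array numbered 3 also lay above that numbered 1 on the first component in 8 of 8 genotypes. The labels do not say that equal numbers share a batch, so the main fit had no replicate block. What the numbers stand for is unknown here. With only the genotypes compared, 0 members passed in pap1-D against Col-0 in limma, 3 in WOX1-2 against Col-0 and 3 in pap1-D/tt4 against pap1-D, where 6.26%, 21.9% and 10.4% of all probe sets did. In MYB12OX/tt4 against MYB12OX that setting ended the call of ALDH2C4 (adjusted p = 0.0576). Without the intensity trend, 3 passed in WOX1-2 against Col-0, where 22.8% of all probe sets did. Leaving out single arrays gave 5 to 6 members in the F test and in tt4 against Col-0, 0 to 1 in pap1-D, 1 to 2 in WOX1-1 and 2 to 6 in WOX1-2 against Col-0, 4 to 5 in MYB12OX/tt4 against MYB12OX and 3 to 5 for pap1-D/tt4. Of all probe sets, 30.1% to 37.1% then passed in tt4, 4.79% to 10.6% in pap1-D, 10.7% to 17.2% in WOX1-1 and 16.6% to 23.5% in WOX1-2 against Col-0. The shares were 10.5% to 17.8% in MYB12OX/tt4 against MYB12OX and 11.5% to 19.5% for pap1-D/tt4. The listing covariate left 1 member in the F test and 0 in each of the 6 comparisons that had any, and turned the sign of all 23 differences. The values with it were, in MYB12OX/tt4 against MYB12OX, 0.029 for ALDH11A3, -0.19 for ALDH2C4, 0.36 for ALDH3F1, -0.58 for ALDH6B2 and -0.13 for ALDH7B4. For pap1-D/tt4 they were 0.056 for ALDH11A3, -0.15 for ALDH2C4, 0.48 for ALDH3F1, -0.63 for ALDH6B2 and -0.016 for ALDH7B4. In WOX1-2 against Col-0 they were 0.16 for ALDH11A3, -0.22 for ALDH2C4, 0.083 for ALDH3F1, -0.61 for ALDH6B2 and -0.26 for ALDH7B4. In WOX1-1 against Col-0 they were 0.047 for ALDH3F1 and -0.49 for ALDH6B2, and in pap1-D against Col-0 0.079 for ALDH3F1. In tt4 against Col-0 they were 0.16 for ALDH11A3, -0.22 for ALDH2C4, 0.89 for ALDH3F1, -1.21 for ALDH6B2 and -0.32 for ALDH7B4. The listing and the genotypes cannot be told apart beyond what these fits show. Over all probe sets it gave 84 passing in place of 5449 in tt4 against Col-0, 45 in place of 2603 in MYB12OX/tt4 against MYB12OX, 136 in place of 2824 for pap1-D/tt4, and 163, 139 and 103 in place of 1508, 2504 and 3446 in pap1-D, WOX1-1 and WOX1-2 against Col-0. In MYB12OX against Col-0 150 passed, 353 with array weights, 338 with the replicate block, 82 with only the genotypes compared and 24 with the listing covariate. With only the genotypes compared 935 passed in pap1-D against Col-0 and 1550 for pap1-D/tt4. Precision was limited by 3 arrays a genotype.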
